A study of Homo sapiens with 8 samples.

Results

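Transcript levels of 10 genes of the cellular redox system were examined on 8 microarrays of transfected prostate cancer cells: HMOX1, NQO1, GCLC, GCLM, TXN, TXNRD1, TXNIP, SRXN1, FTH1 and KEAP1. The genes were chosen by name and every probe set annotated to one of them was taken, which gave 9 probe sets of 9 genes, 1 each, among 33297 probe sets. FTH1 was not analysed here. Both cell lines are established: DU145 grows without androgen, and LNCaP responds to androgen. Each line received 1 of 4 constructs, which were an siRNA against TET2 (siTET2), a control siRNA (siControl), miR-29b, and a negative control miRNA (nc), and RNA was taken 72 hours after transfection from cells kept in RPMI medium with 10% serum. There was 1 array per line and construct, so each difference within a line is a difference of 2 arrays, with no replicate and no p-value. Only 1 siRNA construct against TET2 was used, so that effects of lower TET2 and other effects of that siRNA cannot be told apart. TET2 converts methylated cytosine to its oxidised forms, and the miR-29 family is best known for repressing collagens and DNA methyltransferases.

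Cells meet oxidants and electrophiles with a set of enzymes that share a regulator. KEAP1 binds the transcription factor NFE2L2 (NRF2) and sends it to degradation. When reactive molecules modify KEAP1, NFE2L2 accumulates and binds antioxidant response elements at genes of glutathione synthesis (GCLC, GCLM), of the thioredoxin system (TXN, TXNRD1, SRXN1), of quinone reduction (NQO1) and of heme breakdown (HMOX1). TXNIP stands apart from these: it is an arrestin-domain protein that binds thioredoxin and restrains glucose uptake, and its transcription follows glucose through the factor MondoA and its partner MLX.

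Promoter sequences of RefSeq (build GRCh38.p14) were searched on both strands in windows of 250 bases before to 50 after each annotated start. They were held for 8 of the 9 measured genes, in 11 windows. The gene without a window was HMOX1, whose promoter was not searched. The TXNIP window is shown whole because TXNIP varied most among the genes in DU145 and its promoter carries a known paired element. It lies on the minus strand at chr1:145996530-145996829 and has in capitals CACGAG, 5 other bases and CACGAG again, the letters of the paired carbohydrate response element known in this promoter. The pair lay from 88 to 72 bases before the start. Its letters were searched because they are known from this promoter, so the match was fixed in advance. These exact letters were present in 2 of 35116 promoter windows (0.0057%), a count for a narrow pattern, and looser forms of the pair were not searched.
TXNIP: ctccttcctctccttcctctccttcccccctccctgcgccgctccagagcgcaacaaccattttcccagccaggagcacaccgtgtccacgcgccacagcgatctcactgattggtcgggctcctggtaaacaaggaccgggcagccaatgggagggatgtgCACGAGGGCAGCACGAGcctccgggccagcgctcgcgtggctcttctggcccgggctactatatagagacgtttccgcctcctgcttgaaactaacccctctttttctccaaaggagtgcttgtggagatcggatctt

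The core letters of the antioxidant response element, TGACNNNGC, were present in 4 of the 11 windows, belonging to GCLM, TXNRD1 and KEAP1, and in 13.3% of all promoter windows. Whether HMOX1 has these letters was not examined, for want of a window. The stretches of 120 bases around the matches, shown because these are the redox genes whose windows hold the element, run 5′ to 3′ along each gene, with these letters in capitals on whichever strand they lie. They come from chr1:93909401-93909520 (minus strand), chr12:104215670-104215789 (plus strand), chr12:104286874-104286993 (plus strand) and chr19:10502750-10502869 (minus strand). A match in letters is a description of the window and no measure of binding.
GCLM: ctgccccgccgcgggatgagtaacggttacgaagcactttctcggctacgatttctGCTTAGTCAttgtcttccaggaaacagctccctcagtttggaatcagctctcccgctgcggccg
TXNRD1, upstream start: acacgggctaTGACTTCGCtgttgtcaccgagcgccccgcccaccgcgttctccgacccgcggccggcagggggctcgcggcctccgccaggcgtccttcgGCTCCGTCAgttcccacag
TXNRD1, downstream start: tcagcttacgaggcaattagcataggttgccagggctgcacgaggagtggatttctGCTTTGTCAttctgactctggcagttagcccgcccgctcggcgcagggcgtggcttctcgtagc
KEAP1: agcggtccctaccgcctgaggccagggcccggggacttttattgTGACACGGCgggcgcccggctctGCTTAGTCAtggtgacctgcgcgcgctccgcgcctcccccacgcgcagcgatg

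The transfected microRNA is shown because its seed is what sets the targets of a miRNA. The labels name miR-29b without an arm, and the mature strand that RefSeq lists as hsa-miR-29b-3p is given with its seed, bases 2 to 8, in capitals.
hsa-miR-29b-3p: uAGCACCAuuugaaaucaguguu

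The arrays matched their line labels by marker genes. Of 11 measured DU145 markers, 10 exceeded the array median in every DU145 array and 1 in every LNCaP array, while of 7 measured LNCaP markers 1 did so in DU145 and 6 or 7 in LNCaP. Among 10 measured markers of immune cells 1 exceeded it on each array, and among 10 of fibroblasts 0 or 1. Medians over annotated probe sets ran between 7.34 and 7.39 in DU145 and between 7.64 and 7.71 in LNCaP on the log2 scale of the deposited values. TET2 was 6.60 with siTET2 and 7.85 with siControl in DU145, and 7.89 with siTET2 and 9.01 with siControl in LNCaP, by the probe set of higher mean. It was 7.79 with miR-29b and 7.96 with nc in DU145, and 8.59 with miR-29b and 9.24 with nc in LNCaP. The gene's other probe set read 6.95 with siTET2 and 7.86 with siControl in DU145, and 7.92 with siTET2 and 8.76 with siControl in LNCaP, so that siTET2 gave the lowest of the line's 4 values by both probe sets.

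In DU145, the siTET2 array held the highest value of the line's 4 arrays for 7 of the 9 redox genes: HMOX1, NQO1, GCLC, GCLM, TXNRD1, TXNIP and SRXN1. Over 10607 probe sets of at least median level, that array was the highest of its line for 29.3%. HMOX1 and TXNIP were more than 2-fold higher there than in any control array, and the other 5 differed from siControl by 0.20 to 0.42 on the log2 scale. In LNCaP the siTET2 array was instead the lowest of the line for 4 of the 9, NQO1, TXNRD1, TXN and SRXN1, against 22.5% over the same probe sets, and no redox gene reached a 2-fold difference. With miR-29b, TXNIP in DU145 was the 1 member past 1.5-fold. None of these differences has a replicate, and in RNA of whole dishes fewer cells of a kind and less RNA per cell cannot be told apart.

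**Figure D1:**
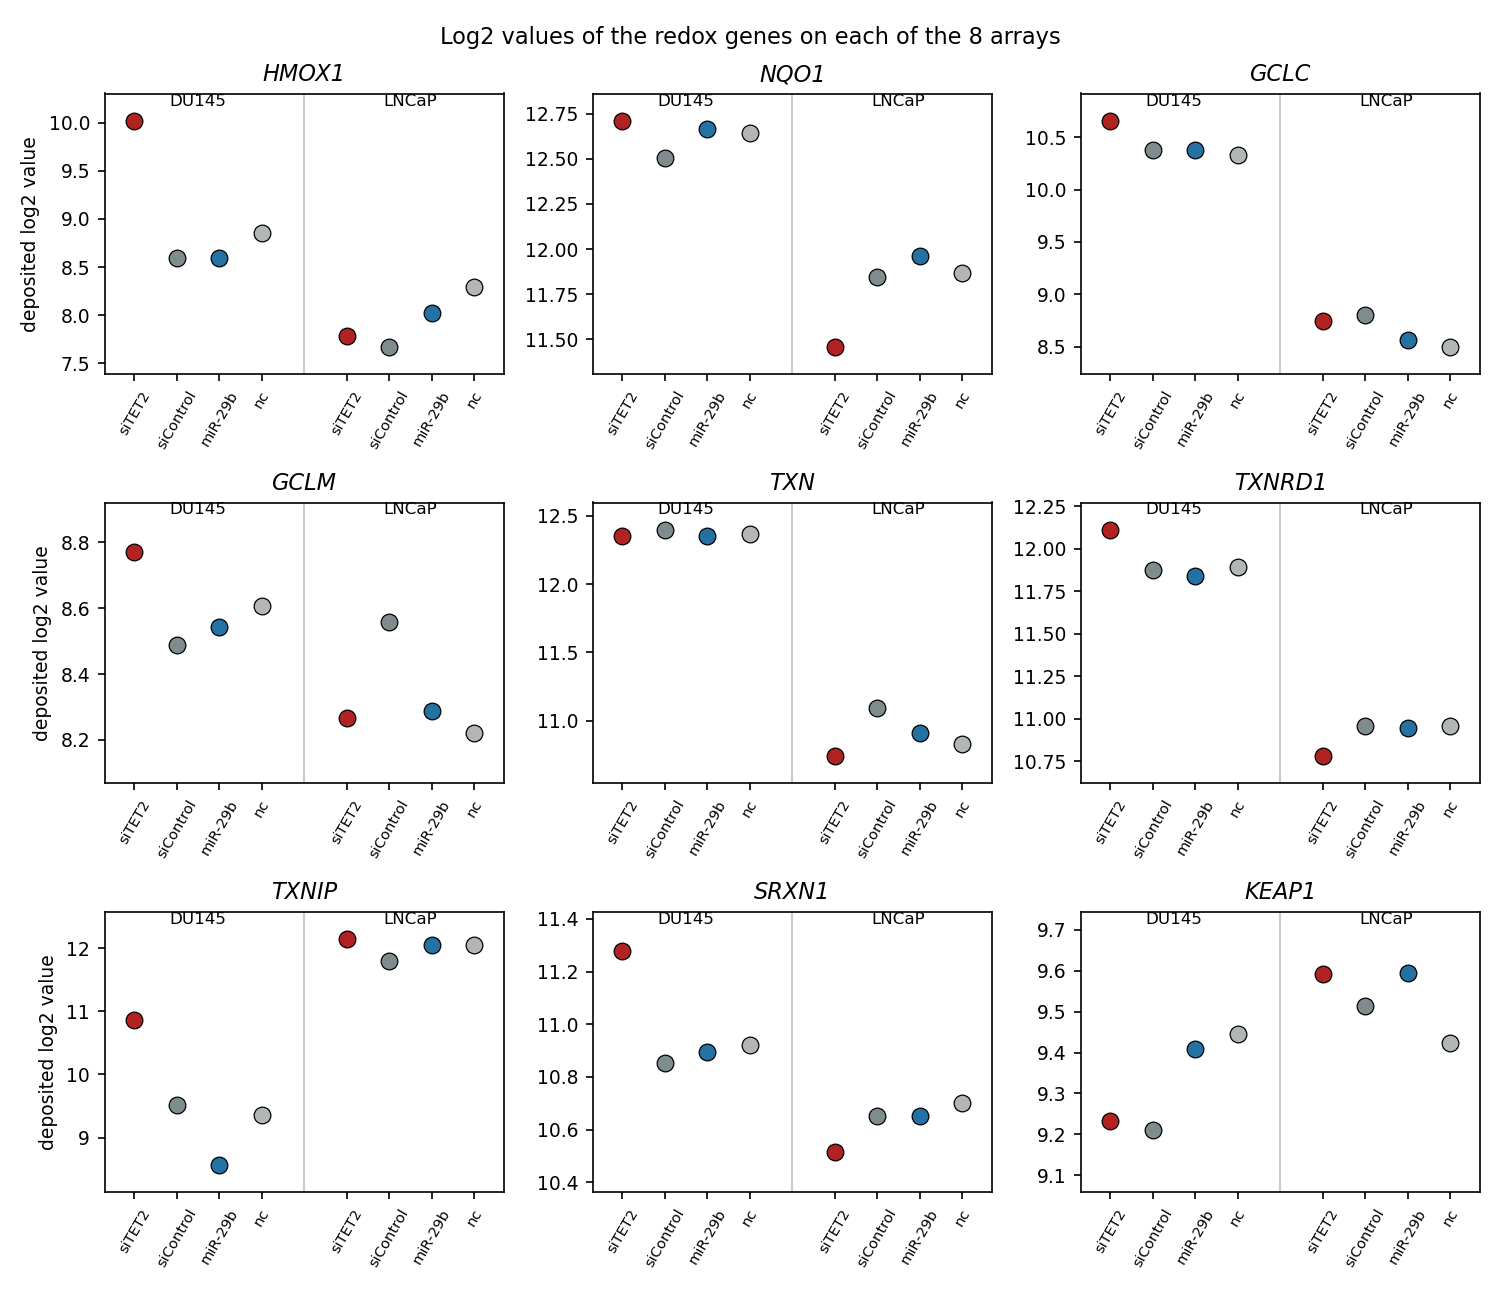
Deposited log2 values of the 9 measured redox genes on the 8 arrays, 1 point per array, with DU145 at the left and LNCaP at the right of each panel and a separate vertical scale per gene. The siTET2 point of DU145 stands above the others for HMOX1 (10.02) and TXNIP (10.87), and the miR-29b point of DU145 is the lowest for TXNIP (8.57).

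HMOX1, which encodes the inducible heme oxygenase that breaks heme into biliverdin, iron and carbon monoxide, showed the widest difference of siTET2 from siControl, in DU145. There its log2 value was 10.02 with siTET2 and 8.59 with siControl, and 8.59 with miR-29b and 8.85 with nc. The 3 arrays without siTET2 lay within 0.26 of each other, and the siTET2 array stood 1.43 above siControl (2.69-fold) and 1.17 above nc. In LNCaP it was 7.78 with siTET2 and 7.67 with siControl, and 8.02 with miR-29b and 8.29 with nc. There the siTET2 value lay between those of both control arrays, which differed by -0.62 (siControl minus nc), past 1.5-fold, a size that 0.528% of 10995 probe sets reached downward between these arrays. The HMOX1 difference with siTET2 in LNCaP was accordingly 0.11 against siControl and -0.51 against nc.

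NQO1, the quinone reductase that is among the best known NFE2L2 targets, was 12.71 with siTET2 and 12.51 with siControl in DU145, and 12.66 with miR-29b and 12.65 with nc. In LNCaP it was 11.46 with siTET2 and 11.84 with siControl, and 11.96 with miR-29b and 11.87 with nc. The siTET2 array was thus the highest of its line in DU145, by 0.07 over nc, and the lowest in LNCaP, by 0.38 under siControl and 0.41 under nc.

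GCLC and GCLM encode the catalytic and the modifier subunit of glutamate-cysteine ligase, the rate-limiting enzyme of glutathione synthesis. GCLC was 10.66 with siTET2 and 10.38 with siControl in DU145, and 10.38 with miR-29b and 10.33 with nc, so that the 3 arrays without siTET2 agreed within 0.05. In LNCaP GCLC was 8.75 with siTET2 and 8.80 with siControl, and 8.56 with miR-29b and 8.50 with nc. The siRNA arrays of LNCaP lay above the microRNA arrays there, and siTET2 minus siControl was -0.05. GCLM was 8.77 with siTET2 and 8.49 with siControl in DU145, and 8.54 with miR-29b and 8.61 with nc. In LNCaP GCLM was 8.27 with siTET2 and 8.56 with siControl, and 8.29 with miR-29b and 8.22 with nc. The siControl array alone was high in LNCaP, so the difference of siTET2 was -0.29 against siControl and 0.05 against nc.

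TXN encodes thioredoxin, which reduces disulfides in other proteins, and TXNRD1 the reductase that recharges it with electrons of NADPH. TXN was 12.35 with siTET2 and 12.40 with siControl in DU145, and 12.35 with miR-29b and 12.37 with nc, a range of 0.05 over the 4 arrays. In LNCaP TXN was 10.74 with siTET2 and 11.09 with siControl, and 10.91 with miR-29b and 10.83 with nc. TXN was the 1 redox gene with a lower value in siTET2 than in siControl in both lines, and it had the narrowest range of the 9 genes in DU145. TXNRD1 was 12.11 with siTET2 and 11.88 with siControl in DU145, and 11.84 with miR-29b and 11.89 with nc. In LNCaP TXNRD1 was 10.78 with siTET2 and 10.96 with siControl, and 10.94 with miR-29b and 10.95 with nc. The other 3 arrays agreed within 0.05 in DU145 and within 0.02 in LNCaP, with siTET2 above them in DU145 and below them in LNCaP.

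TXNIP had the widest range of the 9 genes in DU145, 2.30. In LNCaP its range was 0.348, and HMOX1 (0.62), NQO1 (0.50) and TXN (0.352) had wider ones. In the following, values of TXNIP are given by line. In DU145 TXNIP was 10.87 with siTET2 and 9.51 with siControl, and 8.57 with miR-29b and 9.36 with nc. The control arrays lay 0.15 apart, siTET2 stood 1.36 above siControl (2.56-fold) and further above nc, and miR-29b stood 0.79 below nc (1.73-fold) and 0.94 below siControl. In LNCaP TXNIP was 12.15 with siTET2 and 11.80 with siControl, and 12.04 with miR-29b and 12.05 with nc. There siTET2 was again the highest array, by 0.35 over siControl and 0.10 over nc, and miR-29b differed from nc by -0.01.

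SRXN1 encodes sulfiredoxin, which restores over-oxidised peroxiredoxins. It was 11.28 with siTET2 and 10.85 with siControl in DU145, and 10.90 with miR-29b and 10.92 with nc. In LNCaP SRXN1 was 10.51 with siTET2 and 10.65 with siControl, and 10.65 with miR-29b and 10.70 with nc. The siTET2 array was the highest of DU145, by 0.36 over the nearest array, and the lowest of LNCaP, by 0.14.

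KEAP1, the sensor that holds NFE2L2 down, differed from siControl by 0.02 with siTET2 in DU145 and by 0.08 in LNCaP. It was 9.23 with siTET2 and 9.21 with siControl in DU145, and 9.41 with miR-29b and 9.45 with nc. In DU145 both siRNA arrays lay below both microRNA arrays, so that siTET2 was -0.21 from nc. In LNCaP KEAP1 was 9.59 with siTET2 and 9.51 with siControl, and 9.59 with miR-29b and 9.42 with nc.

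Set together, siTET2 minus siControl in DU145 was above 0 for 8 of the 9 redox genes, against 47.1% of 10855 probe sets that reached the array median in the higher of both arrays, and at least 2-fold higher for 2 of 9, against 0.12%. The median of the 9 was 0.28, and that of the 10855 probe sets was -0.01. In LNCaP the same difference was below 0 for 6 of 9, against 47.1% of 10857 probe sets, with a median of -0.14 against 0.01 over all. None of the 9 was 2-fold higher (0.0461% of all) or lower (0.0921% of all) in LNCaP. All 9 redox genes passed the level floor in every comparison. Against nc the counts moved: 7 of 9 were above 0 in DU145 (42.8% of all) with a median of 0.22, and 5 of 9 were below 0 in LNCaP (45.1% of all) with a median of -0.09. Of the 9, NQO1 and GCLM lay above siControl in DU145 and below it in LNCaP, each by more than the spread between that line's control arrays (a robust SD of 0.16 in DU145 and 0.23 in LNCaP), as did 0.754% of 10607 probe sets.

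With miR-29b, 7 of 9 redox genes were below nc in DU145, where 63.7% of all 10832 probe sets were, and 5 of 9 were above nc in LNCaP, where 55.6% of 10888 were. Apart from TXNIP at -0.79, a 1.5-fold lower level that 0.0739% of all probe sets reached in DU145, and HMOX1 at -0.26, the DU145 differences lay between -0.06 and 0.05. In LNCaP HMOX1 differed by -0.27 and KEAP1 by 0.17, and the others lay between -0.05 and 0.09. HMOX1 with miR-29b was within 0.01 of siControl in DU145 and 0.35 above it in LNCaP.

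**Figure D2:**
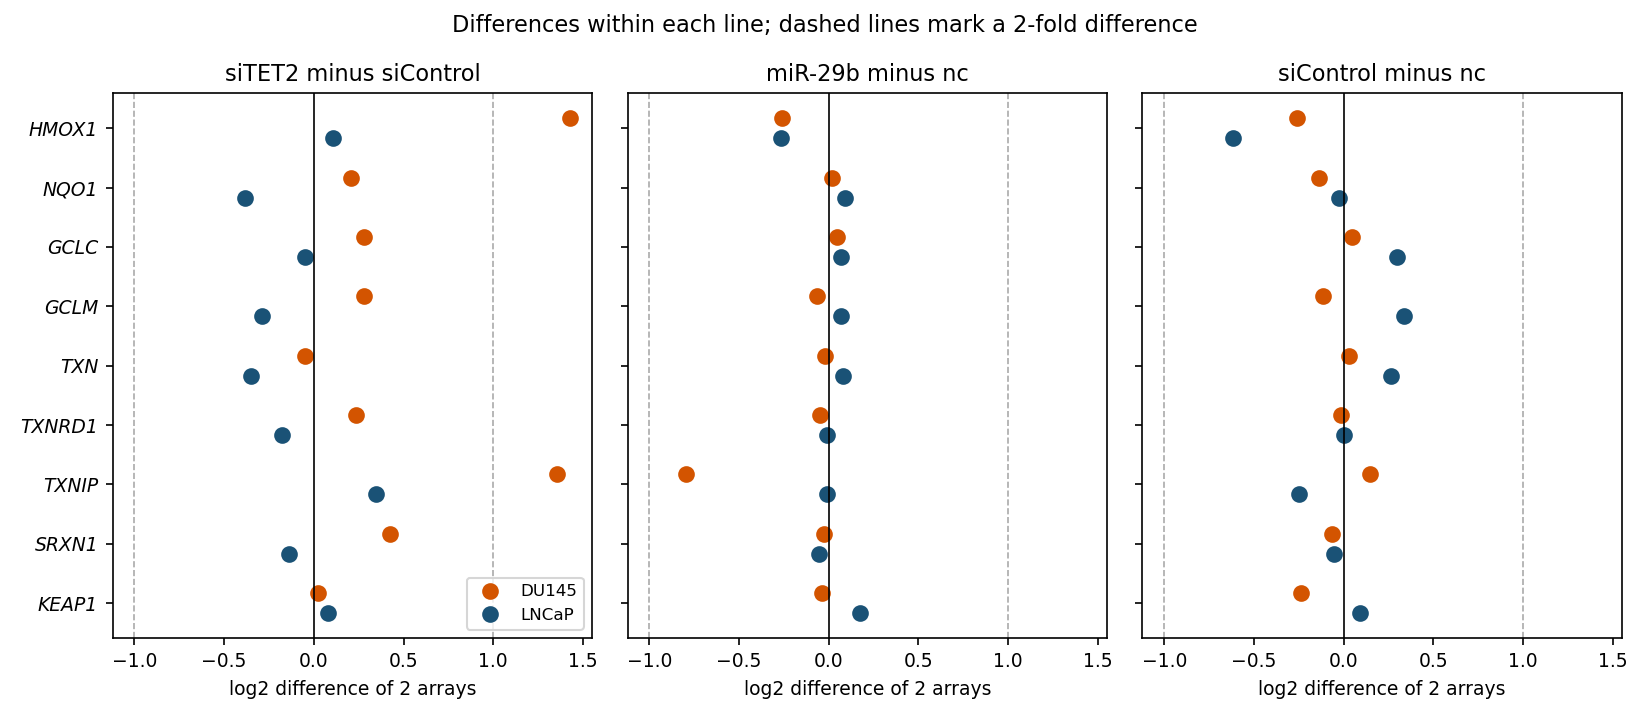
Log2 differences of 2 arrays for the 9 redox genes in DU145 (orange, upper point) and LNCaP (blue, lower point), for siTET2 minus siControl, miR-29b minus nc, and siControl minus nc. HMOX1 (1.43) and TXNIP (1.36) in DU145 are the 2 points past the dashed 2-fold line, and the control arrays of LNCaP differ most in HMOX1 (-0.62).

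An effect of each construct common to both lines was tested with limma over all arrays in a model of line plus construct. A difference that the lines do not share enters the SE of this fit and raises the p-value. For siTET2, 0 of the 9 redox genes passed an adjusted p of 0.05, where 34 of 10607 probe sets (0.321%) did and 1428 had an unadjusted p below 0.05. By its probe set of higher mean, TET2 fell by 1.18 (SE 0.125, limma adjusted p = 0.0222). TXNIP had a common difference of 0.85 (SE 0.393, limma adjusted p = 0.397), HMOX1 of 0.77 (SE 0.345, limma adjusted p = 0.383) and TXN of -0.20 (SE 0.098, limma adjusted p = 0.425). The other 6 lay between -0.09 and 0.14. Without the LNCaP siTET2 array the HMOX1 effect was 1.55, against a siTET2 minus siControl difference of 1.43 in DU145. That fit had the DU145 array as its only siTET2 array, while the siControl arrays of both lines entered it. It takes that single siTET2 array to vary like the rest. Without the DU145 siTET2 array HMOX1 was -0.01 and TXNIP 0.08. For miR-29b limma called 0 of 9 redox genes and 0 of 10607 probe sets, 392 of them with an unadjusted p below 0.05, and for siControl minus nc 0 of 9 and 0 of 10607, 1416 of them below 0.05.

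The lines themselves differed in most redox genes. Values were centred on each array's median over annotated probe sets and compared with limma with construct as a term, over 4 arrays per line. The 7 members higher in DU145, where 43.1% of 10607 probe sets were called higher, were GCLC, TXN, HMOX1, TXNRD1, NQO1, SRXN1 and GCLM. TXNIP was lower in DU145, a direction called for 35.1% of all probe sets. In either direction 78.1% of all probe sets were called, so the 8 of 9 is near that background. With values as deposited, 32.7% of the called probe sets were higher in DU145, against 55.1% with centred values, and the mean of the array medians was 7.37 in DU145 and 7.69 in LNCaP.

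GCLC was 2.11 higher in DU145 than in LNCaP (SE 0.077, limma adjusted p = 1.33e-08), and TXN was 1.79 higher (SE 0.075, limma adjusted p = 3.26e-08). All 4 DU145 arrays lay above all 4 LNCaP arrays for both, as deposited and centred, and so they did for HMOX1, NQO1, TXNRD1 and SRXN1. With centred values KEAP1 was the only redox gene whose values overlapped between the lines. The share of all probe sets without overlap was not computed. HMOX1 was 1.39 higher (SE 0.241, limma adjusted p = 0.000539), with the siTET2 array the highest in DU145. Without that array HMOX1 was 0.996 higher. TXNRD1 was 1.34 higher (SE 0.088), NQO1 1.17 higher (SE 0.104), SRXN1 0.68 higher (SE 0.103) and GCLM 0.59 higher (SE 0.099). With values as deposited, SRXN1 was 0.36 and GCLM 0.27 higher. TXNIP was -2.11 apart, lower in DU145 (SE 0.272, limma adjusted p = 7.29e-05), and it was -2.50 without the DU145 siTET2 array. KEAP1 differed by 0.11 with centred values (SE 0.078, limma adjusted p = 0.207), by -0.0042 after quantile normalization and by -0.21 as deposited (limma adjusted p = 0.033), so its direction turns with the scaling.

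**Figure D3:**
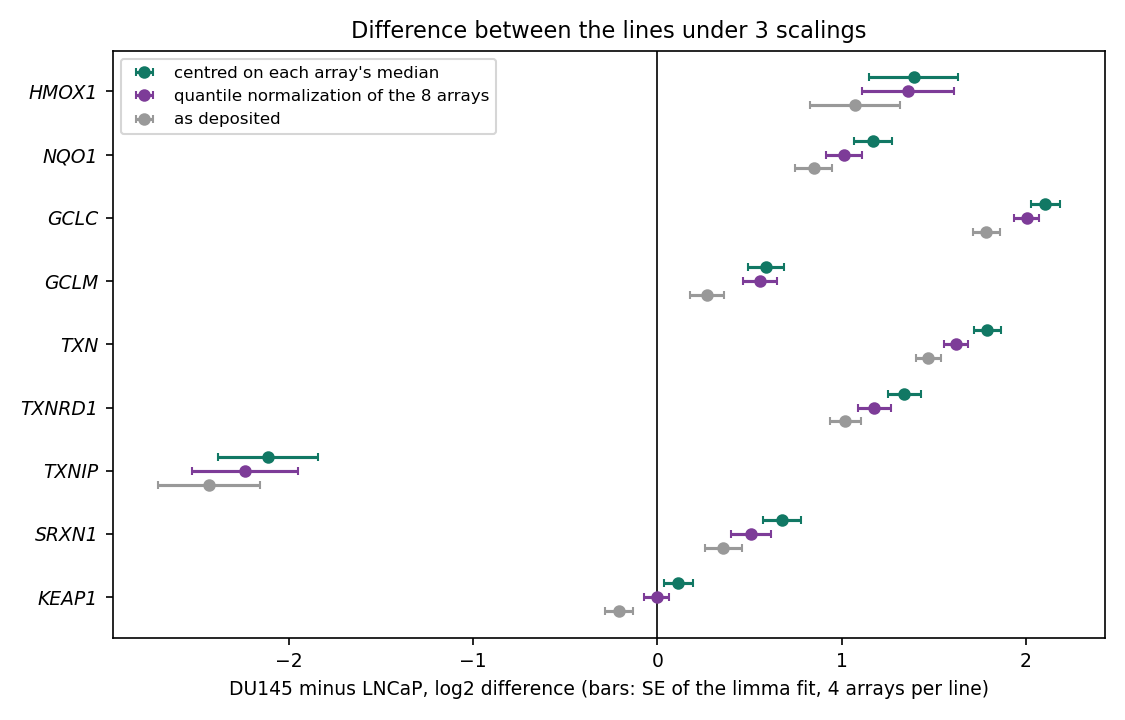
DU145 minus LNCaP log2 differences of the 9 redox genes from limma under 3 scalings, with bars of 1 SE (4 arrays per line). GCLC (2.11 with centred values) and TXN (1.79) stand furthest to the right and TXNIP (-2.11) to the left, while KEAP1 lies on both sides of 0 depending on the scaling.

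Other genes of the same pathways were counted from lists. Of 12 KEAP1-NFE2L2 regulators above the level floor, 7 were above 0 with siTET2 in DU145 and 6 in LNCaP, with medians of 0.03 and -0.01. Over all probe sets above the floor, 47.1% were above 0 in DU145 and 52.8% in LNCaP, the shares against which the siTET2 counts of this and the following lists are read. Against nc, with 42.8% and 54.8% of all probe sets above 0, the regulators gave 7 and 8 of 12. SQSTM1, the autophagy receptor that binds KEAP1, was 11.93 with siTET2, 11.39 with siControl and 11.31 with nc in DU145. In LNCaP SQSTM1 was 11.53 with siTET2, 11.74 with siControl and 11.53 with nc. NFE2L1, a relative of NFE2L2, was 11.16 with siTET2 and 10.93 with siControl in DU145, and 10.85 with siTET2 and 10.54 with siControl in LNCaP. Its common difference of 0.27 did not pass (SE 0.085, limma adjusted p = 0.222).

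Of 17 further NFE2L2 target and antioxidant genes, 11 were above 0 with siTET2 in DU145 (median 0.07) and 5 in LNCaP (median -0.10). Against nc, 7 of these 17 were above 0 in DU145 (median -0.04) and 5 in LNCaP (median -0.08), so the sign of the DU145 median turned. The largest siTET2 differences of the list were in LNCaP. AKR1C2, an aldo-keto reductase of steroid metabolism, was 7.34 with siTET2, 8.44 with siControl and 8.66 with nc, and near-identical AKR1C relatives make its probe set uncertain. For siTET2 minus siControl AKR1C2 passed the floor through the siControl array alone and so had to be counted as lower. SLC7A11, the cystine importer that feeds glutathione synthesis, was 10.11 with siTET2 and 11.09 with siControl in LNCaP, and 11.24 with miR-29b and 10.50 with nc. In DU145 SLC7A11 was 9.90 with siTET2 and 10.08 with siControl. UGDH, which makes UDP-glucuronate, had a common siTET2 difference of -0.33 (SE 0.095, limma adjusted p = 0.194).

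Of 19 genes of the glutathione system above the floor in DU145, 7 were above 0 with siTET2 (median -0.03), and of 16 in LNCaP 11 were (median 0.03). Against nc the counts were 6 (median -0.12) and 9 (median 0.07). CHAC1, which degrades glutathione and is induced through ATF4, was 9.40 with siTET2 and 8.48 with siControl in DU145, and 8.39 with miR-29b and 8.44 with nc. In LNCaP CHAC1 was 7.88 with siTET2 and 8.06 with siControl, and 8.93 with miR-29b and 7.94 with nc. The high array of CHAC1 was thus siTET2 in DU145 and miR-29b in LNCaP. GPX8, a peroxidase of the endoplasmic reticulum, was 7.21 with siTET2, 7.89 with siControl and 7.38 with nc in LNCaP. There GPX8 passed the floor through the siControl array alone and so had to be counted as lower. In DU145 GPX8 was 9.47 with siTET2 and 9.45 with siControl.

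Of 18 thioredoxin and peroxiredoxin genes, 9 were above 0 with siTET2 in DU145 (median -0.000855) and 12 in LNCaP (median 0.15). Against nc the counts were 6 (median -0.07) and 11 (median 0.03). SESN2, a sestrin induced by stress that is in the ATF4 list too, was 8.73 with siTET2 and 7.49 with siControl in DU145, and 7.23 with miR-29b and 7.56 with nc. In LNCaP SESN2 was 8.59 with siTET2 and 8.20 with siControl, and 8.65 with miR-29b and 8.39 with nc. Its common siTET2 difference of 0.82 did not pass (SE 0.285, limma adjusted p = 0.263). SELENOP, the selenium carrier, was 7.53 with siTET2 and 6.74 with siControl in DU145, where it passed the floor through the siTET2 array alone and so had to be counted as higher. In LNCaP SELENOP was 11.19 with siTET2 and 10.94 with siControl.

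Of 15 genes of heme and iron handling, 8 were above 0 with siTET2 in DU145 (median 0.04) and 11 in LNCaP (median 0.13). Against nc 4 were above 0 in DU145 (median -0.10) and 11 in LNCaP (median 0.10), so the sign of the DU145 median turned. TFRC, the transferrin receptor, was 10.92 with siTET2 and 11.26 with siControl in DU145, and 11.30 with siTET2 and 11.98 with siControl in LNCaP. Its common difference was -0.51 (SE 0.103, limma adjusted p = 0.0904). FTL, the ferritin light chain, was 12.40 with siTET2 and 12.12 with siControl in DU145, and 10.36 with siTET2 and 10.15 with siControl in LNCaP, a common difference of 0.25 (SE 0.097, limma adjusted p = 0.323). Of the superoxide and peroxide enzymes, CAT (catalase) had a common difference of -0.28 (SE 0.087, limma adjusted p = 0.215).

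The list around TXNIP, of arrestin-domain and glucose-responsive genes, had 6 of 10 above 0 with siTET2 in DU145 (median 0.06) and 11 of 13 in LNCaP (median 0.24). Against nc the medians were 0.04 in DU145 and 0.11 in LNCaP. ARRDC4, the closest relative of TXNIP in this list, was 6.86 with siTET2 and 6.62 with siControl in DU145, and 6.23 with miR-29b and 6.52 with nc. In LNCaP ARRDC4 was 8.93 with siTET2 and 8.53 with siControl, and 8.30 with miR-29b and 8.51 with nc. All 4 DU145 values lay below the array median and out of that line's count. In LNCaP the siTET2 array was the highest and the miR-29b array the lowest, and the fit common to both lines gave differences of 0.32 for siTET2 (SE 0.087, limma adjusted p = 0.181) and -0.25 for miR-29b (SE 0.087, limma adjusted p = 0.997). DDIT4, a stress-induced inhibitor of mTORC1, was 10.11 with siTET2 and 9.45 with siControl in DU145, and 9.63 with siTET2 and 9.25 with siControl in LNCaP.

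Of 21 ATF4 and unfolded protein genes above the floor in DU145, 13 were above 0 with siTET2 (median 0.12), and of 20 in LNCaP 2 were (median -0.17), where 52.8% of all probe sets were. Against nc these medians were 0.09 and -0.03. With miR-29b, 17 of 19 were above nc in LNCaP (median 0.26), where 55.6% of all probe sets were. The siControl array, without miR-29b, was above nc for 17 of 19 as well (median 0.11), where 54.4% of all probe sets were. With miR-29b 13 of 19 were above siControl (median 0.19), where 50.2% of all probe sets were. In DU145 3 of 21 were above nc with miR-29b, where 36.3% of all probe sets were. PPP1R15A, a phosphatase subunit that restarts translation after stress, was 9.74 with siTET2, 8.75 with siControl and 8.46 with nc in DU145. In LNCaP PPP1R15A was 7.15 with siTET2, 6.91 with siControl and 7.27 with nc. Its LNCaP values lay below the array median and out of that line's count. DDIT3 was 9.92 with siTET2 and 9.11 with siControl in DU145, but 8.20 with nc, so its control arrays differed by more than its siTET2 difference. Heat shock and proteotoxic stress genes had medians of -0.04 in DU145 and -0.10 in LNCaP for siTET2 minus siControl, and both turned against nc, to 0.02 in DU145 (7 of 12 above 0) and 0.07 in LNCaP (7 of 11). Over all of these lists, limma called 0 genes for a common effect of siTET2, of miR-29b, or of siControl against nc.

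**Figure D4:**
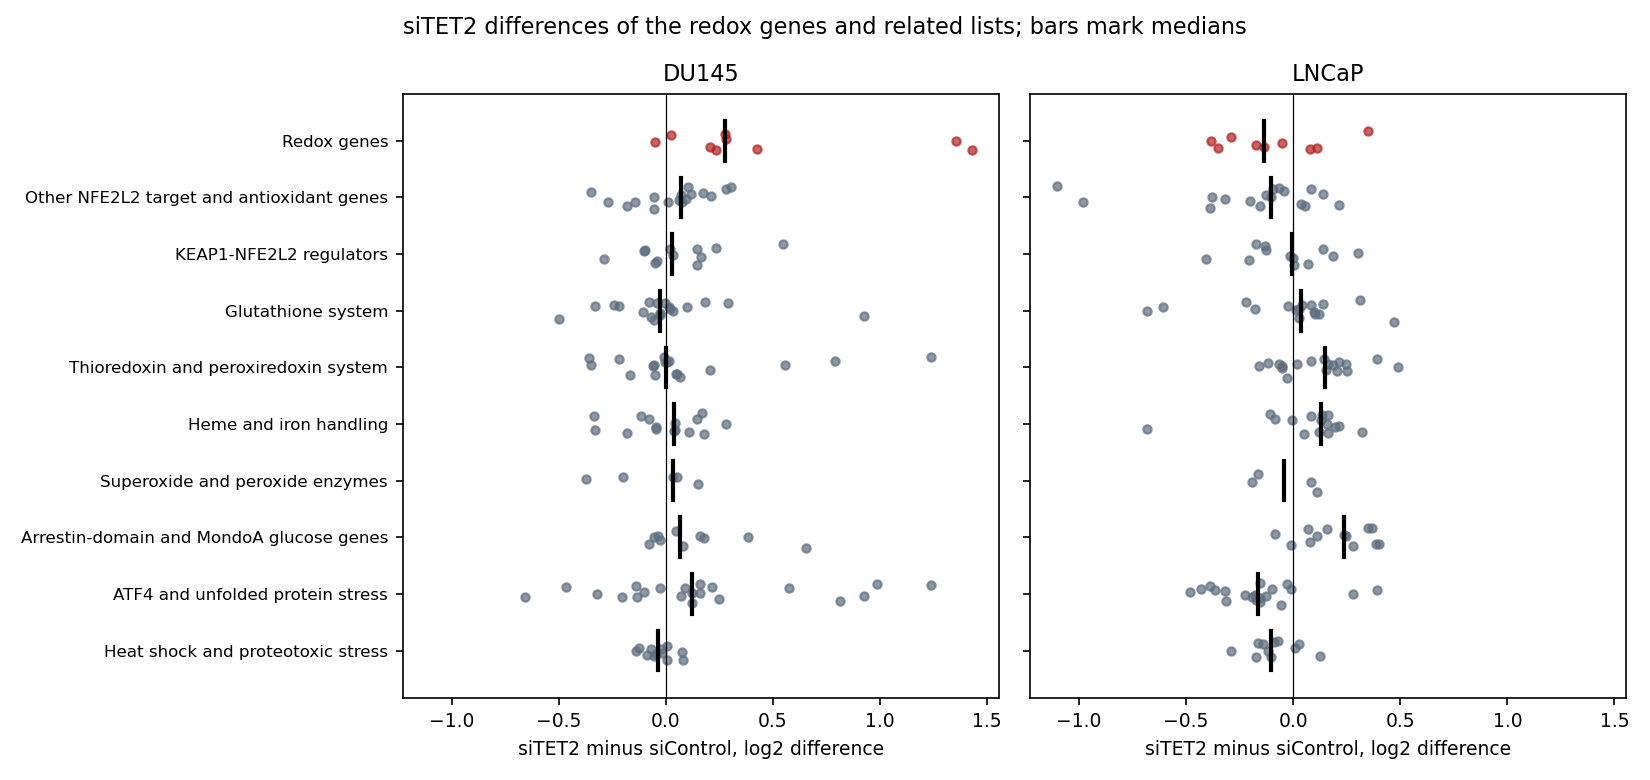
Log2 differences of siTET2 minus siControl in DU145 (left) and LNCaP (right) for the 9 redox genes (red) and for the genes of 9 related lists (grey), 1 point per gene with black bars at the medians. The redox genes have a median of 0.28 in DU145 and -0.14 in LNCaP, and the list of arrestin-domain and glucose genes one of 0.24 in LNCaP.

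Between the lines, with centred values, 13 of 19 glutathione genes were called higher and 5 lower in DU145, and 3 of 18 thioredoxin and peroxiredoxin genes higher and 8 lower. Over all probe sets 43.1% were called higher and 35.1% lower, 78.1% either way, and whether either list differs from these shares was not tested. GSTP1, the glutathione transferase known for promoter methylation in prostate cancer, was 4.28 higher in DU145, and GPX3, an extracellular glutathione peroxidase, was 3.58 higher. MGST2, a microsomal transferase, differed by -3.06, lower in DU145, as was SELENOP at -3.60. Of 17 further NFE2L2 targets, 8 were higher and 6 lower in DU145. FTL was 2.39 higher (SE 0.071) and the efflux pump ABCC3 was 3.51 higher, while EPHX1, an epoxide hydrolase, differed by -1.25 (SE 0.102). The LNCaP values of GSTP1, GPX3 and ABCC3 lay below the array median on all 4 arrays, as did the DU145 values of ARRDC4, and the DU145 values of MGST2 and SELENOP lay below it on 3 of 4 arrays. The sizes of these differences therefore rest on low signals in 1 line. ARRDC4 was lower in DU145 by the same direction as TXNIP, at -1.69. Of 11 regulators 6 were higher and 3 lower, led by MAFG, a small MAF partner of NFE2L2, at 1.10 (SE 0.066), and BACH1, a repressor of HMOX1, at 0.83 (SE 0.083). Each gene named here differed by more than the array medians did.

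The genes whose pattern was most like that of HMOX1 and TXNIP were found as those with the smallest root mean square distance between values centred on each line's mean, over 8 arrays and 9728 probe sets. They were chosen on these same values, so their likeness, including a rise with siTET2 in DU145, follows from the choice and is no separate result. For HMOX1, whose own values had a root mean square of 0.45 about the line means, the nearest were SEMA7A, a membrane-anchored semaphorin (distance 0.168), IL6R, a chain of the interleukin-6 receptor (0.183), and CCN5 (0.193). SEMA7A differed by 0.88, IL6R by 1.34 and CCN5 by 0.95 with siTET2 in DU145. In LNCaP SEMA7A shared the low siControl value of HMOX1 (-0.46 for siControl minus nc), and IL6R did not (0.02). For TXNIP, with a root mean square of 0.59, the nearest were PPP1R15A (distance 0.185), LIPH, a lipase (0.193), and SESN2 (0.226). LIPH differed by 1.49 with siTET2 in DU145 and by 0.18 in LNCaP. With miR-29b in DU145, PPP1R15A differed by -0.33, SESN2 by -0.33 and LIPH by -0.13, each less than TXNIP at -0.79.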

How the data were processed

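The deposited table gives log2 values of 33297 probe sets on 8 arrays. The authors made them with RMA (background correction, normalization and summarising of probes) in Affymetrix Expression Console, per the submitters' processing notes, and the table does not say which arrays were normalized together. Gene symbols came from the platform annotation: 19460 probe sets had 1 symbol, 1754 several and 12083 were not listed. Members, lists and tests were chosen with earlier results of these data known, and the medians of lists against the other control array were added after seeing the data.

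Differences within a line were counted at 2-fold and 1.5-fold among annotated probe sets whose higher array reached that array's median. Common effects and the line difference were fitted with limma 3.58.1 in R 4.3.3 (lmFit and eBayes, line and construct as terms, 3 residual degrees of freedom, Benjamini-Hochberg adjustment) over the 10607 annotated probe sets whose mean reached the median. Nothing says that arrays came from separate cultures, so the spread behind each p-value is that between arrays and may be technical. The scripts were tested on simulated data. Precision is limited by the number of arrays. No scan date or batch was given in the sources used here. Named were the members, TET2, the called or 2 most different genes of each list, and the 3 genes nearest to HMOX1 and to TXNIP. Alternatives were the other control array, floors, scalings, the variance prior and each array left out.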

Additional observations from a re-analysis of the deposited data

Results flagged for a closer look

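The 9 redox genes were each examined in the 4 arrays of both lines. In 3 of these groups of 4 arrays, 1 array lay far from the other 3. Its gap to the nearest array was above Dixon's 95% critical share of the range, and each time that array was a siTET2 array. GCLC was 10.66 and SRXN1 was 11.28 in the DU145 siTET2 array, both above the other DU145 arrays, and TXNRD1 was 10.78 in the LNCaP siTET2 array, below the other LNCaP arrays. Chance alone would pick out some of the groups examined, about 1 in 20, and the 4 arrays of a line carry different constructs. The share of all probe sets that this rule picks out was not computed. Over 10607 probe sets, the DU145 siTET2 array was the highest of its line for 29.3% and the lowest for 37.9%. For the LNCaP siTET2 array these shares were 27.1% and 22.5%.

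NQO1 and GCLM moved in opposite directions in the lines with siTET2, each by more than the spread between that line's control arrays. NQO1 differed by 0.20 in DU145 and -0.38 in LNCaP, 0.59 apart, but in DU145 it was 0.07 above nc, within that spread. GCLM differed by 0.28 in DU145 and -0.29 in LNCaP, 0.57 apart, but in LNCaP it was 0.05 above nc. Of 10607 probe sets, 0.754% were higher in DU145 and lower in LNCaP in this way. With 1 array per group the difference between the lines was not tested.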

How the results depend on the processing

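The counts of probe sets at 2-fold depended on the floor, the fold and the control. siTET2 in DU145 gave 34, against 20 with the 75th percentile floor and 261 at 1.5-fold, and in LNCaP 15, against 8 with the mean of both controls, 24 with no floor, 9 with the stricter floor and 297 at 1.5-fold. miR-29b in DU145 gave 0, against 5 with siControl as the control, 1 with the mean of both controls, 3 with no floor and 16 at 1.5-fold, and in LNCaP 9, against 22 with no floor, 2 with the stricter one and 88 at 1.5-fold. The control arrays gave 4 in DU145 (11, 2 and 40 with no floor, the stricter floor and 1.5-fold) and 17 in LNCaP (55, 4 and 276). At 1.5-fold, 1 redox gene passed with miR-29b in DU145 (TXNIP) and 1 between the LNCaP control arrays (HMOX1). The common siTET2 fit called 34 probe sets, against 1 with no floor, 81 with the stricter one, 0 over the whole table, 95 with a variance trend, 16 against nc and 72 against the mean of both controls, and 0 to 115 when each array was left out in turn: 0 without DU145 siTET2 or either siControl array, 6 without either miR-29b array and 115 without LNCaP siTET2. It called 0 to 1 redox genes then. Without the term for cell line, which acts as the block, it called 0. Pairing beyond the line was not possible, because the labels give no replicate number. The line comparison called 8289, against 16460 with no floor (6121 higher, 10339 lower in DU145) and 4210 with the stricter one (2591 higher, 1619 lower). Higher and lower calls numbered 4570 and 3719 with centred values, 4036 and 4251 after quantile normalization, and 2822 and 5798 as deposited, where KEAP1 was -0.21. Of 694 recomputed values of redox genes, 71 changed sign. Leaving out an array is not possible for a difference of 2 arrays.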
